A study of Homo sapiens with 6 samples.

Results

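The direct contrast of 2 drug treatments was examined in MHCC97-H, a human hepatocellular carcinoma line selected for its high metastatic potential. Cells given 40 µM chloroquine for 16 h (2 libraries) were compared with cells given 0.2 mM melatonin for 16 h (2 libraries), and all 16877 genes of the 62710 in the count table that passed a filter on low counts were compared. Untreated cells of the same line (2 libraries) were set beside both agents, which gives the 6 libraries analysed here. All cells were labelled wild type and were grown in DMEM with 10% fetal bovine serum. Polyadenylated RNA was sequenced after a TruSeq preparation. The agents were given at different doses, so the contrast is between the treatments as given and not between equal exposures. None of the 6 libraries is labelled as vehicle only, and the labels do not say whether libraries of a group came from separate cultures, so p-values measure the spread between these libraries, which may be technical.

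Chloroquine is a weak base that gathers in lysosomes, raises their pH and blocks the last step of autophagy, the fusion of autophagosomes with lysosomes, so cargo is not degraded. Cholesterol taken up with LDL leaves the cell's lysosomes through NPC1 and NPC2, and when sterol at the endoplasmic reticulum is low, the factor SREBP2 is released from its anchor to switch on cholesterol synthesis, while the nuclear receptor LXR switches on sterol export when oxysterols are high. Melatonin is the indoleamine hormone of the pineal gland, which acts at nanomolar levels through the receptors MTNR1A and MTNR1B and at higher doses also binds the quinone reductase NQO2. Both agents bear on the endoplasmic reticulum stress and autophagy named in the study's title, and their direct contrast asks where the transcriptomes they leave differ.

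Library totals ran from 15993730 to 23311452 counts, so that a gene with no count may lie at up to 0.123 to 0.184 CPM (counts scaled to a common library size after TMM normalisation), an allowance of 3 counts that covers counting error only. The leading principal component held 58.5% of the variance and placed the melatonin libraries at 44.2 and 47.0, chloroquine at -16.9 and -16.4 and untreated cells at -29.5 and -28.4. The labelled cell type was checked against 24 hepatocyte markers: 22 were under 1 CPM in every library, ALB had 1 count and AFP 2 counts over the 6 libraries, and the urea cycle gene CPS1 made up nearly all of their summed level, at 1186 and 1218 CPM with chloroquine and 444 and 437 CPM with melatonin. These markers thus do not bear out the liver cell label, and the identity of the line was not tested further. Ductal markers summed to 1190 and 1210 CPM with chloroquine and 757 and 759 CPM with melatonin, most of it KRT7. Fibroblast markers summed to 22.3 to 26.4 CPM in the 4 libraries, leukocyte markers to 4.95 to 7.1 CPM and endothelial markers to 3.14 to 6.85 CPM. The log2 fold change increased by 0.0792 with each 10% of transcript GC content, where duplicate libraries differed by no more than 0.0179. Of the calls given next, 7102 were also made after that trend was taken out. Against untreated cells the trend was larger, -0.143 for chloroquine and -0.222 for melatonin, and it was not taken out of those comparisons.

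The agents left transcriptomes that differed at many genes, mostly by small steps. At an adjusted p under 0.05 (edgeR quasi-likelihood test, Benjamini-Hochberg over all tested genes), 7933 genes differed, 47.0% of those tested, with 4041 (23.9%) higher with chloroquine and 3892 (23.1%) higher with melatonin. The median size among the called genes was 0.38 on the log2 scale, with quartiles of 0.25 and 0.65. A difference of at least 2-fold was reached by 491 called genes toward chloroquine and 529 toward melatonin, together 6.04% of those tested, and at least 4-fold by 87 and 71. The 2 libraries of one agent lay wholly above or below those of the other for 71.8% of genes, the background against which separate groups are to be read. Scaling by library totals alone moved the median gene by -0.09 and gave 2952 genes higher with chloroquine and 5177 higher with melatonin. The split by direction therefore depends on the scaling, and small list medians, such as that of the lysosomal genes, should be read against that shift.

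**Figure D1:**
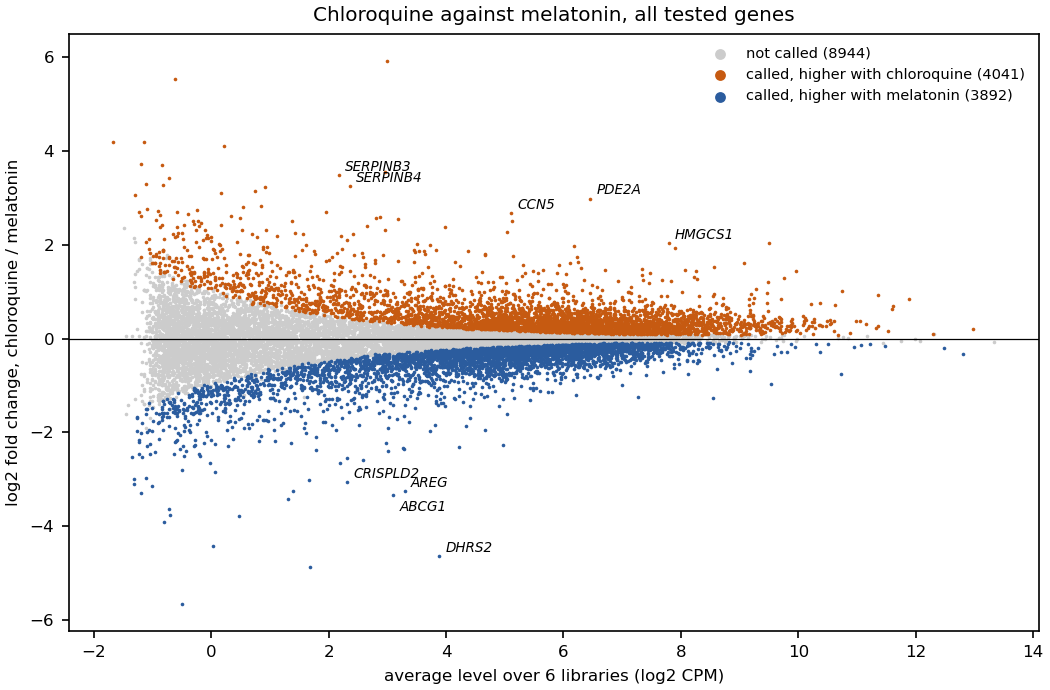
Log2 fold change of chloroquine over melatonin (vertical axis) against the average level over the 6 libraries in log2 CPM (horizontal axis) for the 16877 tested genes. Orange points are the 4041 genes called higher with chloroquine and blue points the 3892 called higher with melatonin; most called genes lie within 1 unit of the line at 0.

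The 12 genes furthest toward melatonin were DHRS2, ABCG1, AREG, CRISPLD2, CLDN1, SERPINI1, CREB5, EFR3B, ABCA1, UNC5B, EGR1 and CXCL8. By rule they were picked among called genes with an average of at least 2 log2 CPM whose libraries did not overlap between the agents. DHRS2 (chr14:23630115-23645639 on GRCh38, as are all gene positions given here), a short-chain dehydrogenase/reductase, was read at 1.39 and 1.76 CPM with chloroquine, 39.9 and 38.6 CPM with melatonin and 0.736 and 1.77 CPM in untreated cells. Its melatonin libraries alone were high, and the fold change was -4.64 ± 0.15 (log2, SE; 24.9-fold higher with melatonin; edgeR adjusted p = 2.44e-19). Several of the others shared that layout, with chloroquine close to untreated cells. CRISPLD2, a secreted cysteine-rich protein, lay at 1.29 and 1.35 CPM with chloroquine and 11.4 and 10.6 CPM with melatonin, against 1.65 and 1.72 CPM untreated. The tight junction protein CLDN1 gave 1.69 and 1.397 CPM with chloroquine, 10.1 and 9.31 CPM with melatonin and 1.72 and 1.61 CPM untreated. SERPINI1, the protease inhibitor neuroserpin, and the leucine zipper factor CREB5 differed by -2.59 and -2.56, and neither was called between chloroquine and untreated cells (edgeR adjusted p = 0.937 and 0.751). UNC5B, a netrin receptor, and EFR3B, a membrane anchor of phosphatidylinositol 4-kinase, differed by -2.33 and -2.39. The sterol exporters ABCG1 and ABCA1 had another layout, in which untreated cells lay between the agents.

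The 12 genes furthest toward chloroquine by the same rule were SERPINB3, SERPINB4, PDE2A, CCN5, BIRC7, FAP, CASP14, CP, ALPI, IGFL1P1, ZBED10P and ACTC1. PDE2A (chr11:72576141-72674591), a phosphodiesterase that cGMP stimulates, was read at 151 and 143 CPM with chloroquine, 18.6 and 18.6 CPM with melatonin and 95.1 and 100.02 CPM untreated. Chloroquine was the highest group and melatonin the lowest, and the fold change was 2.98 ± 0.056 (7.91-fold; edgeR adjusted p = 8.06e-25). For the matricellular protein CCN5 the values were 40.9 and 41.7 CPM with chloroquine, 6.13 and 6.89 CPM with melatonin and 56.6 and 58.4 CPM untreated, a difference of 2.68 ± 0.091. CP, the copper-carrying ferroxidase ceruloplasmin, lay at 44.4 and 47.7 CPM with chloroquine, 7.73 and 8.58 CPM with melatonin and 53.1 and 50.9 CPM untreated. In CCN5 and CP the melatonin libraries stood apart. Chloroquine lay below untreated cells for CCN5 (-0.48, edgeR adjusted p = 6.85e-06), while for CP it was not called against them (-0.18, edgeR adjusted p = 0.0726). BIRC7, the apoptosis inhibitor livin, FAP, a cell surface serine protease, and CASP14, the caspase of cornifying epidermis, differed by 2.58, 2.57 and 2.55. The serpins SERPINB3 and SERPINB4 differed by 3.49 and 3.25; they are near-identical neighbours on chromosome 18 among which reads may be split, as may those of ALPI (2.40), the intestinal alkaline phosphatase, and ACTC1 (2.22), the cardiac actin, with their paralogs. IGFL1P1 (2.38) and ZBED10P (2.27) are annotated as pseudogenes. Outside the rule, and chosen after its value was seen, the gene ENSG00000266976, a long intergenic RNA without a symbol at chr19:28606688-28615229, had the highest fold change of all tested genes, 5.92 ± 0.29, at 14.0 and 16.3 CPM with chloroquine, 0.327 and 0.121 CPM with melatonin and 10.2 and 6.75 CPM untreated.

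**Figure D2:**
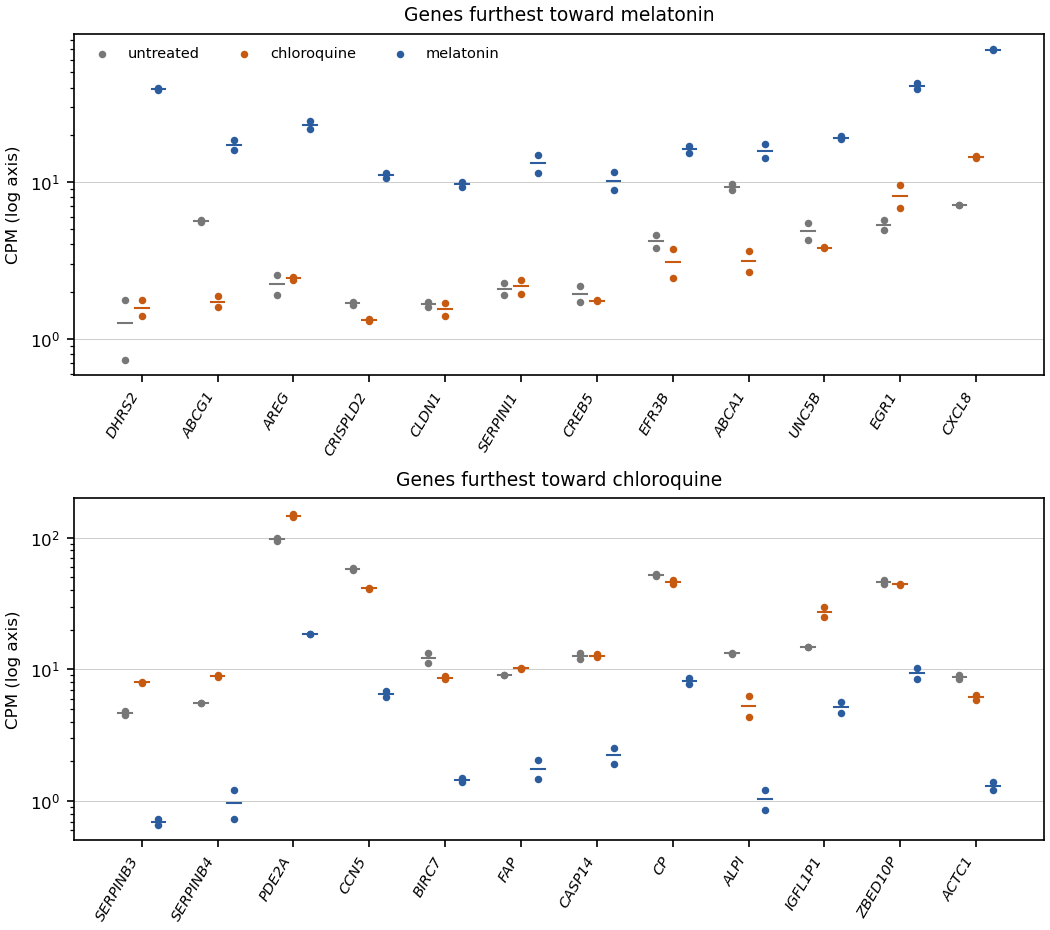
CPM on a log axis in each of the 6 libraries for the 12 genes furthest toward melatonin (upper panel) and the 12 furthest toward chloroquine (lower panel); points are libraries and short lines group means. In the upper panel the untreated libraries of DHRS2, AREG and CLDN1 sit with the chloroquine libraries, and in the lower panel the melatonin libraries of PDE2A, CCN5 and CP sit apart below both other groups.

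Genes of cholesterol synthesis and uptake were higher with chloroquine almost throughout. Of 28 SREBP2 targets, 24 were higher with chloroquine and 2 with melatonin, and the median log2 fold change of the list was 1.03 beside -0.0039 over all tested genes. HMGCS1 (chr5:43289395-43313512), which makes HMG-CoA at the head of the mevalonate pathway, was read at 441 and 431 CPM with chloroquine, 105 and 108 CPM with melatonin and 121 and 116 CPM in untreated cells. The chloroquine libraries stood far above the others, which lay together, and the difference was 2.04 ± 0.038 (4.1-fold; edgeR adjusted p = 8.06e-25). FDFT1, the squalene synthase, lay at 640.4 and 612 CPM with chloroquine and 216 and 218 CPM with melatonin (1.53 ± 0.036). INSIG1, which holds SREBPs in the endoplasmic reticulum and is itself an SREBP target, lay at 459 and 457 CPM with chloroquine and 167 and 167 CPM with melatonin (1.45 ± 0.036). For both genes the chloroquine and melatonin libraries were far apart, with no overlap.

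Members of the list did not all get their difference from the same side. HMGCS1 and INSIG1 were 1.88 and 1.37 above untreated cells with chloroquine and -0.16 and -0.083 from them with melatonin (log2), both agents being set against the same 2 untreated libraries. FDPS, the farnesyl diphosphate synthase, was moved by each agent in opposite directions, 0.64 with chloroquine and -0.72 with melatonin, which gave a direct difference of 1.36 ± 0.039 (edgeR adjusted p = 1.24e-20). SREBF2, the gene of SREBP2 itself, differed from untreated cells mainly with melatonin, with 0.16 for chloroquine, -0.74 for melatonin and 0.90 directly. The exceptions were MYLIP (-1.38 ± 0.10), a ubiquitin ligase and an LXR target as well, and SCAP (-0.14 ± 0.051), the sterol-sensing escort of SREBP, both higher with melatonin. Without chloroquine library 1 or melatonin library 1, 1 SREBP2 target was called toward melatonin. PMVK (-0.24) and TM7SF2 (0.41) did not pass the test.

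To show what the promoters of these genes hold, the letters CCAAT, the box bound by NF-Y, a partner of SREBP at sterol genes, were searched on both strands of the 250 bases before the gene start given by RefSeq (GRCh38.p14). They occurred in 16 of the 21 list members with a promoter there and in 33.0% of all 27305 promoters. The HMGCS1 promoter, given because its gene had the highest fold change of the list, spans chr5:43313413-43313662 on the minus strand and holds 2 matches, both on the opposite strand and so printed as ATTGG in capitals. The GENCODE models used for gene positions start elsewhere than RefSeq for the promoters printed here: within the window for HMGCS1, ASNS, INCENP and CXCL8, and before it for CHAC1 and MCM7, whose windows lie inside the longer models. A match describes the letters and is not shown to be a bound site.
HMGCS1: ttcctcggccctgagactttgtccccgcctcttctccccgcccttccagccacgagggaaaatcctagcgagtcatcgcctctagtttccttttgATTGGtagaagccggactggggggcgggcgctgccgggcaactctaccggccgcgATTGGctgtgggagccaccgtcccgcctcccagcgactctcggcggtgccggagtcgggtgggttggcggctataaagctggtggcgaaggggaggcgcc

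Genes of fatty acid synthesis followed the same direction. Of 15 tested members, 12 were higher with chloroquine and 2 (ACSL3, -0.22, and GPAM, -0.24) with melatonin (1 without chloroquine library 1 or melatonin library 2), and the median was 0.58. SCD, the stearoyl-CoA desaturase, was read at 2551 and 2447 CPM with chloroquine, 1215 and 1266 CPM with melatonin and 1451 and 1415 CPM untreated. The fatty acid synthase FASN lay at 425 and 404 CPM with chloroquine, 166 and 170.1 CPM with melatonin and 307 and 333 CPM untreated. In both genes chloroquine was above and melatonin below untreated cells without overlap, and the direct differences were 1.01 ± 0.035 and 1.30 ± 0.040 (edgeR adjusted p = 8.51e-19 and 7.14e-20). FADS2, the delta-6 desaturase, differed by 1.47 ± 0.043 and ACLY, which makes cytosolic acetyl-CoA from citrate, by 0.87 ± 0.036. SREBF1, the gene of SREBP1, lay below untreated cells with both agents (-0.29 and -0.89) and was 0.60 higher with chloroquine than with melatonin. PLIN2, the coat protein of lipid droplets, was read at 249.6 and 270.2 CPM with chloroquine and 97.7 and 98.9 CPM with melatonin (1.403 ± 0.064). PLIN2 comes from a separate list of fatty acid oxidation and PPAR targets, which did not share its direction. Of 16 tested there, 2 were higher with chloroquine, 6 with melatonin and 8 did not pass the test, with a median of -0.15.

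Among LXR targets of sterol efflux, most called genes lay on the opposite side. Of 8 tested, 5 were higher with melatonin, 1 (APOE, 0.75, not called under 6 other settings, nor without either chloroquine library or without melatonin library 1) with chloroquine, and NR1H2 and NR1H3, the LXR genes themselves, did not pass the test (0.16 and 0.20). ABCG1 (chr21:42199689-42297244), which passes cholesterol to HDL, was read at 1.59 and 1.86 CPM with chloroquine, 18.5 and 16.1 CPM with melatonin and 5.76 and 5.59 CPM untreated. ABCA1, the exporter to lipid-poor apolipoprotein A-I, lay at 2.68 and 3.62 CPM with chloroquine, 17.5 and 14.1 CPM with melatonin and 9.75 and 8.91 CPM untreated. For both exporters the 3 groups were separate, with chloroquine lowest and melatonin highest. ABCG1 differed by -3.33 ± 0.16 (10.1-fold higher with melatonin; edgeR adjusted p = 1.38e-15), of which -1.71 lay between chloroquine and untreated cells and 1.62 between melatonin and untreated cells. ABCA1 differed by -2.34 ± 0.15, from -1.56 and 0.78. SMPDL3A, a secreted phosphodiesterase, differed by -0.62 ± 0.18 and lost its call without chloroquine library 1, at -0.39, when 3 LXR targets were called toward melatonin.

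**Figure D3:**
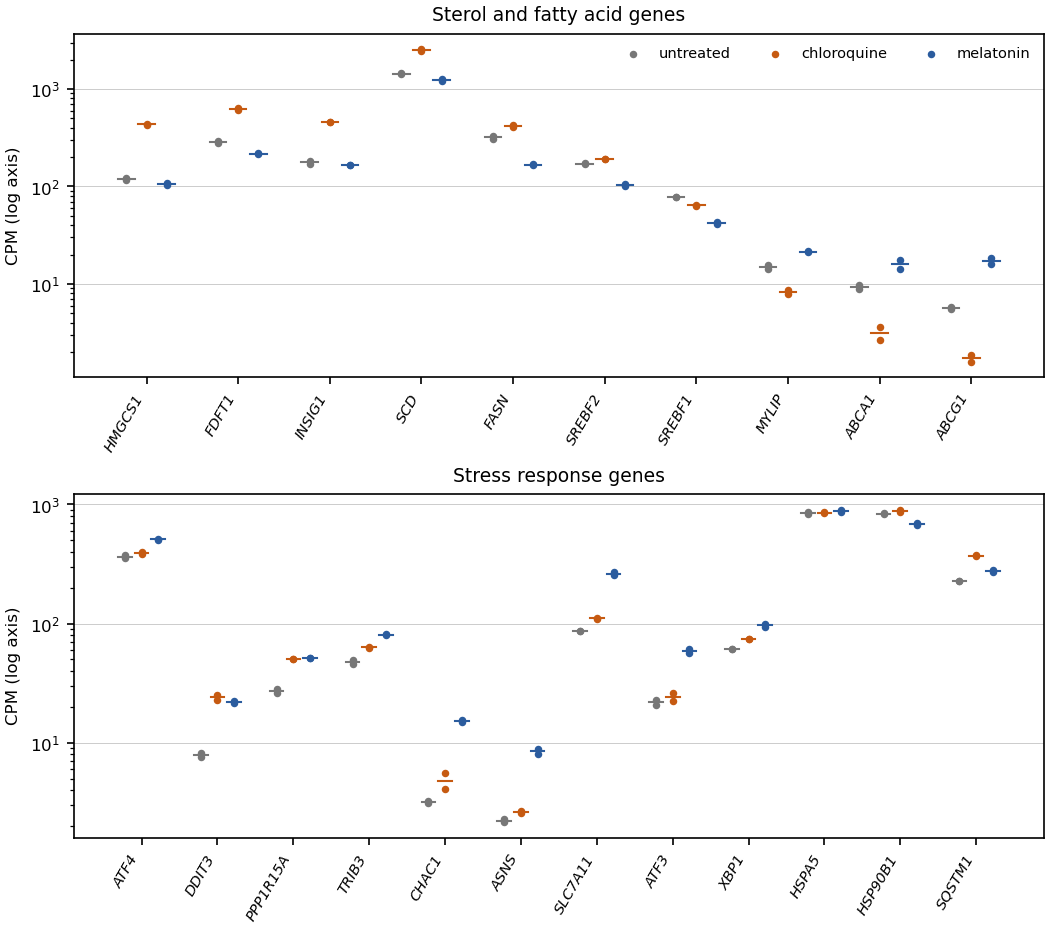
CPM on a log axis in each library for genes of sterol and fatty acid metabolism (upper panel) and of the stress responses (lower panel); points are libraries and short lines group means. Chloroquine is highest for HMGCS1, FDFT1 and INSIG1 and lowest for MYLIP, ABCA1 and ABCG1; melatonin is highest for CHAC1, ASNS, SLC7A11 and ATF3, while DDIT3 and PPP1R15A lie close together with both agents and above untreated cells.

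Lysosomal genes split rather than moving together. Of 50 hydrolases and membrane proteins, 20 were higher with chloroquine, 12 with melatonin and 18 did not pass the test. This is 64.0% called, beside 47.0% of all tested genes, and the median was 0.08. GPNMB, a lysosomal and melanosomal glycoprotein regulated by the MiT/TFE factors, had the highest fold change and was read at 24.2 and 25.4 CPM with chloroquine, 7.36 and 5.68 CPM with melatonin and 11.4 and 10.2 CPM untreated. CTSD, the aspartic protease cathepsin D, lay at 60.3 and 58.7 CPM with chloroquine, 28.9 and 32.4 CPM with melatonin and 44.9 and 47.5 CPM untreated. Both had melatonin below and chloroquine above untreated cells, with direct differences of 1.90 ± 0.11 and 0.97 ± 0.068 (edgeR adjusted p = 1.24e-13 and 3.28e-12). The tetraspanin CD63 and the membrane protein LAPTM4B differed by 0.72 and 0.54, and here chloroquine differed from untreated cells by 0.046 and -0.034. NEU1, the lysosomal sialidase, was above untreated cells with both agents, at 65.4 and 63.0 CPM with chloroquine, 51.1 and 51.5 CPM with melatonin and 29.1 and 30.9 CPM untreated, and the direct difference was 0.33 ± 0.059. The cholesterol carriers NPC1 and NPC2 were 0.33 and 0.29 higher with chloroquine. Among the 12 higher with melatonin, the lowest fold changes among called genes were those of SMPD1 (-0.91), the acid sphingomyelinase, MANBA (-0.77), a beta-mannosidase, and FUCA1 (-0.75), a fucosidase. The E-box TCACGTGA of the CLEAR element occurred in 5 of 34 promoters of the list and in 0.89% of all, and 3 of those 5 genes were higher with chloroquine.

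Subunits of the V-ATPase, the pump that acidifies lysosomes, were higher with chloroquine in 9 of 19 cases and with melatonin in 3 (6 by library totals alone), with a median of 0.18. ATP6V1C1 (118 and 116 CPM against 86.4 and 91.5 CPM) and ATP6V1E1 (106 and 115 against 83.3 and 85.3 CPM), subunits of the cytosolic sector, differed by 0.40 ± 0.045 and 0.39 ± 0.047. The 3 higher with melatonin were ATP6V0A1 (-0.23), ATP6AP2 (-0.17) and ATP6V0E2 (-0.52). Among MiT/TFE factors and the Rag GTPase pathway that controls them at the lysosome, 6 of 17 were higher with chloroquine and 2 with melatonin, a share of 47.1% that is close to the background of 47.0%. FNIP1 and FLCN, which form the GTPase-activating complex for RagC, had the smallest p-values of the list. FNIP1 was read at 86.5 and 88.1 CPM with chloroquine, 56.6 and 55.1 CPM with melatonin and 55.4 and 55.7 CPM untreated. FLCN was read at 33.4 and 33.3 CPM with chloroquine, 22.6 and 19.6 CPM with melatonin and 22.005 and 20.4 CPM untreated. Melatonin and untreated libraries lay together for both genes, and the direct differences were 0.64 ± 0.050 and 0.65 ± 0.083. MITF (-0.013), TFEB (0.20) and MTOR (0.004) did not pass the test, with 95% intervals of -0.14 to 0.12, -0.16 to 0.57 and -0.071 to 0.079.

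Among called genes of the core autophagy machinery, more were higher with melatonin than with chloroquine, by small steps. Of 36 genes, 14 were higher with melatonin and 6 with chloroquine, all by less than 1 on the log2 scale. The share called was 55.6%, beside 47.0% of all tested genes. The median was -0.09, about the size of the shift that scaling by library totals alone gave. ATG4C, a protease that processes ATG8 proteins, was read at 22.4 and 24.3 CPM with chloroquine and 37.0 and 32.6 CPM with melatonin (-0.58 ± 0.082). STX17, the autophagosomal SNARE of lysosome fusion, and EPG5, a tether of the same step, differed by -0.38 ± 0.059 and -0.31 ± 0.050. PIK3C3, the lipid kinase VPS34, went the other way, at 38.6 and 34.9 CPM with chloroquine and 25.3 and 26.8 CPM with melatonin (0.50 ± 0.076). GABARAPL1, an ATG8 protein, lay at 209 and 212 CPM with chloroquine, 235 and 232 CPM with melatonin and 233 and 234 CPM untreated, a difference of -0.15 that passed the test at edgeR adjusted p = 0.00101. Without chloroquine library 1 the number higher with melatonin was 8.

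Cargo receptors were split, with 6 of 18 higher with chloroquine and 7 with melatonin (median -0.04). SQSTM1, the ubiquitin-binding receptor p62, was read at 379 and 367 CPM with chloroquine, 273 and 284 CPM with melatonin and 226 and 228 CPM untreated. Both agents lay above untreated cells and chloroquine above melatonin, with a direct difference of 0.42 ± 0.035 (edgeR adjusted p = 9.15e-11). CALCOCO2 (NDP52) was read at 76.0 and 74.8 CPM with chloroquine and 112 and 107 CPM with melatonin (-0.54 ± 0.047), and TAX1BP1, its relative, differed by -0.36 ± 0.036. The mitophagy receptor BNIP3, which is also a hypoxia target, differed by 0.63 ± 0.038. CCPG1 (-0.60) and RETREG1 (-0.52), receptors for the endoplasmic reticulum, were higher with melatonin. In the endosome and ESCRT list 16 of 31 were higher with chloroquine and 7 with melatonin, among them the retromer subunit VPS35 (0.36) and the ESCRT-III subunit CHMP1B (-0.55).

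Targets of ATF4, a stress branch of the endoplasmic reticulum, were more often higher with melatonin. ATF4 is translated when eIF2alpha is phosphorylated and drives amino acid supply genes, and CHOP, the product of DDIT3, acts beside it. Of 44 tested targets, 28 were higher with melatonin and 7 with chloroquine, with a median of -0.25. SLC7A11 (chr4:138164097-138242349), the cystine importer, was read at 110.3 and 112 CPM with chloroquine, 269 and 257 CPM with melatonin and 86.3 and 86.8 CPM untreated. CHAC1, which degrades glutathione, lay at 4.07 and 5.54 CPM with chloroquine, 15.6 and 14.9 CPM with melatonin and 3.25 and 3.10 CPM untreated. ASNS, the asparagine synthetase, lay at 2.68 and 2.59 CPM with chloroquine, 8.87 and 8.10 CPM with melatonin and 2.15 and 2.27 CPM untreated. All 3 were highest with melatonin without overlap, by -1.24 ± 0.039, -1.67 ± 0.14 and -1.69 ± 0.18 (edgeR adjusted p = 7.97e-20, 1.34e-10 and 7.49e-09). ATF4 itself was 1.29-fold higher with melatonin (399 and 387 CPM against 506 and 511 CPM), ATF3, a stress-induced repressor, differed by -1.28 ± 0.077, and the serine and folate enzymes PSAT1 and MTHFD2 by -0.66 and -0.53. Toward chloroquine lay ALDH18A1 (0.53), of proline synthesis, VEGFA (0.53), GDF15 (0.43), CBS (0.43) and SHMT2 (0.30), another serine and folate enzyme.

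DDIT3 and PPP1R15A did not pass the test between the agents. DDIT3 was read at 23.0 and 25.1 CPM with chloroquine, 21.4 and 22.5 CPM with melatonin and 7.60 and 8.14 CPM untreated. The direct difference was 0.13 with a 95% interval of -0.044 to 0.31 (edgeR adjusted p = 0.218), while both agents lay above untreated cells, by 1.61 and 1.48. PPP1R15A, the GADD34 subunit that restores eIF2alpha, lay at 50.8 and 50.3 CPM with chloroquine, 51.2 and 50.9 CPM with melatonin and 26.3 and 28.5 CPM untreated, a direct difference of -0.015 with an interval of -0.14 to 0.11. An interval that takes in 0 does not show that the agents act alike at these genes.

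The C/EBP-ATF element, written TGATGNAA and searched on both strands, occurred in 4 of the 33 list promoters, those of ATF3, CHAC1, ASNS and AARS1, and in 3.19% of all promoters; all 4 genes were higher with melatonin. The promoters of the CHAC1 and ASNS genes described above are given with the element in capitals. That of CHAC1 spans chr15:40953221-40953470 on the plus strand, with the match starting at position -209 from the start and lying on the opposite strand as printed, and that of ASNS spans chr7:97872409-97872658 on the minus strand, with the match at -68.
CHAC1: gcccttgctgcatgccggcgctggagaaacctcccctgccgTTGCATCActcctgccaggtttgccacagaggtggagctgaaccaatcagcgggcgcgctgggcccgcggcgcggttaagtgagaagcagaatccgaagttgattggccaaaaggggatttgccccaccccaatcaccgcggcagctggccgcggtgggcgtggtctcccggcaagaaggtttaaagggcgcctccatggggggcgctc
ASNS: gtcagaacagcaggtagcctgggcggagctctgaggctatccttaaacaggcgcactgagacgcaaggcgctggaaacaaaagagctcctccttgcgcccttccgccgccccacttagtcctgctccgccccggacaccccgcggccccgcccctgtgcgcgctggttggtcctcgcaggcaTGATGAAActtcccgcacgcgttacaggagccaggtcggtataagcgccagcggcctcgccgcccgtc

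Targets of ATF6 and XBP1, which supply chaperones and degradation factors, were split. Of 38, 18 were higher with melatonin, 10 with chloroquine, and the median was -0.10. Among those higher with melatonin were SEL1L (-0.45 ± 0.040), the scaffold of the HRD1 ligase, and EDEM3 (-0.47 ± 0.046), a mannosidase, the oxidase ERO1B (-0.87 ± 0.074) and the chaperones HYOU1 (-0.26) and HSPA13 (-0.40). XBP1 was read at 74.4 and 74.1 CPM with chloroquine, 98.5 and 94.5 CPM with melatonin and 61.5 and 60.7 CPM untreated, so that melatonin was highest and untreated lowest (-0.38 ± 0.046). Among those higher with chloroquine, the chaperone HSP90B1 (GRP94), at 868 and 898 CPM with chloroquine and 668 and 697 CPM with melatonin, differed by 0.37 ± 0.034, the disulfide isomerase PDIA6 by 0.30, the lectin chaperone CALR by 0.25 and EDEM1, a degradation factor, by 0.18. HSPA5 (BiP), the main chaperone of the compartment, lay at 842 and 861 CPM with chloroquine, 862 and 901 CPM with melatonin and 829.9 and 859 CPM untreated. The chloroquine libraries lay just below those of melatonin and overlapped untreated cells, and the direct difference was -0.049 with an interval of -0.12 to 0.022 (edgeR adjusted p = 0.258); by library totals alone it was called at -0.14.

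**Figure D4:**
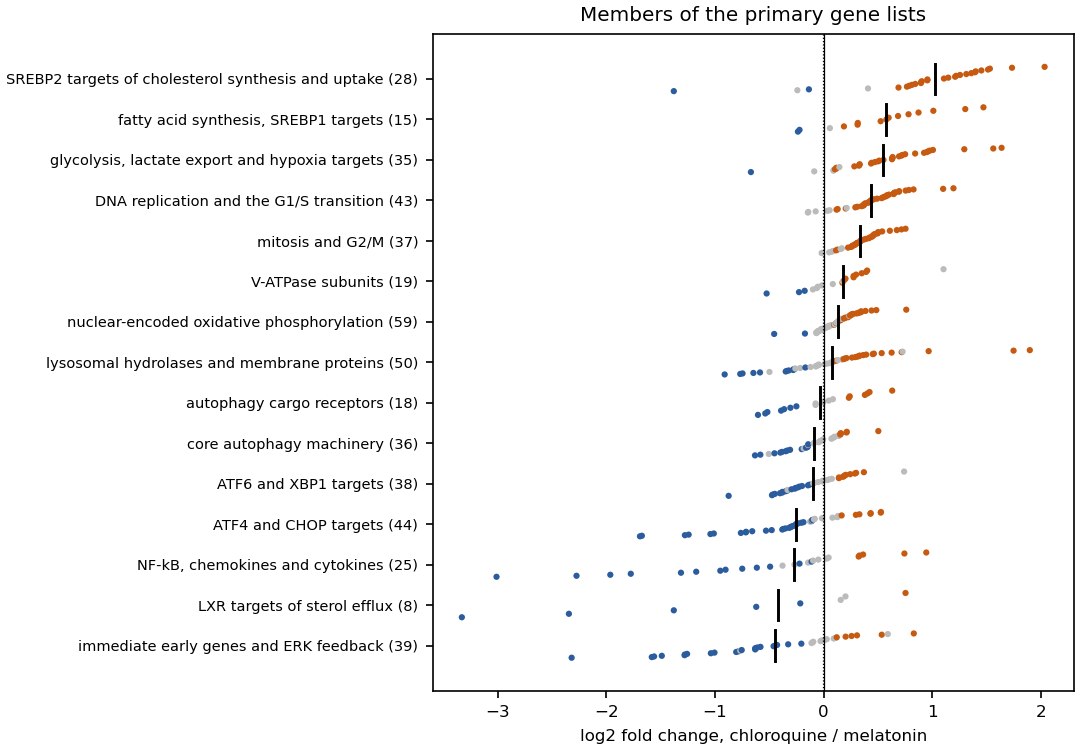
Log2 fold change of chloroquine over melatonin for each tested member of the 15 gene lists, with the number of members in brackets; orange and blue points were called higher with chloroquine and melatonin, grey points were not called, black bars mark list medians and the dotted line the median of all genes. The medians run from 1.03 for SREBP2 targets to -0.45 for immediate early genes.

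Glycolysis and hypoxia targets were higher with chloroquine in 30 of 35 cases, with a median of 0.55 and ANKRD37 (-0.67) the sole gene called toward melatonin, a count of 0 without chloroquine library 1 or melatonin library 1 and of 2 without chloroquine library 2. PGK1 (chrX:77910739-78129296), phosphoglycerate kinase, was read at 3020.2 and 3021 CPM with chloroquine, 1572 and 1610.0 CPM with melatonin and 3245 and 3233 CPM untreated. LDHA, lactate dehydrogenase A, lay at 4258 and 4286 CPM with chloroquine, 2337 and 2426 CPM with melatonin and 4711 and 4632 CPM untreated. GPI, glucose phosphate isomerase, lay at 648 and 636 CPM with chloroquine, 319 and 347 CPM with melatonin and 803 and 789.7 CPM untreated. In these genes the melatonin libraries were the low ones, and chloroquine lay between them and untreated cells. The direct differences were 0.93 ± 0.033, 0.84 ± 0.034 and 0.95 ± 0.038 (edgeR adjusted p = 1.97e-18, 2.68e-17 and 1.73e-17). The glucose transporter SLC2A3 differed more, 1.64 ± 0.067, as did the carbonic anhydrase CA9 (1.56) and the hypoxia gene NDRG1 (1.30). Over the list the median was -0.11 for chloroquine and -0.71 for melatonin against the shared untreated libraries.

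Nuclear-encoded subunits of oxidative phosphorylation were called in 28 of 59 cases, a share close to the background of 47.0%, but 26 of the 28 were higher with chloroquine, with a median of 0.13. ATP5MC1, a c subunit of ATP synthase, was read at 90.2 and 90.5 CPM with chloroquine, 53.1 and 53.6 CPM with melatonin and 96.2 and 104 CPM untreated (0.76 ± 0.050). CYC1, cytochrome c1, ATP5F1B, the catalytic beta subunit, and NDUFS1 of complex I differed by 0.39, 0.32 and 0.33. NDUFA2 (-0.45) and COX6A1 (-0.17) were higher with melatonin, and 1 gene was without chloroquine library 1 and 7 were by library totals alone. Of the 13 mitochondrially encoded messengers, 2 were higher with chloroquine and 3 with melatonin (38.5% called, below the background of 47.0%), from -0.21 (MT-ND4, which like MT-CYB lost its call with DESeq2) to 0.12 (MT-ATP8) among the called genes. Iron genes included TFRC, the transferrin receptor, at 975 and 954 CPM with chloroquine, 408 and 429 CPM with melatonin and 757 and 755 CPM untreated (1.21 ± 0.035), and the heme oxygenase HMOX1, at 102 and 90.4 CPM with chloroquine and 31.0 and 32.1 CPM with melatonin (1.61 ± 0.060). The ferritin heavy chain FTH1 differed by 0.85 and the light chain FTL by 0.13.

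Proliferation genes were higher with chloroquine wherever they were called. In DNA replication and the G1/S transition this held for 37 of 43 genes and none was called higher with melatonin, with a median of 0.44, and in mitosis and G2/M for 31 of 37 and none, with a median of 0.34. By library totals alone 3 replication genes and 1 mitosis gene were called toward melatonin, and without melatonin library 1 this held for 1 replication gene. UHRF1, which copies DNA methylation at replication forks, was read at 169.9 and 164 CPM with chloroquine, 78.6 and 77.1 CPM with melatonin and 186 and 184 CPM untreated. MCM5, a subunit of the replicative helicase, lay at 142 and 149.8 CPM with chloroquine, 78.5 and 86.7 CPM with melatonin and 160.5 and 158 CPM untreated. MKI67, the proliferation marker Ki-67, lay at 655 and 656 CPM with chloroquine, 411 and 449 CPM with melatonin and 636 and 652 CPM untreated. Melatonin was the low group in all 3 while chloroquine lay near untreated cells, and the direct differences were 1.10 ± 0.041, 0.83 ± 0.046 and 0.61 ± 0.037 (edgeR adjusted p = 3.83e-18, 2.43e-14 and 2.07e-13). The helicase subunits MCM2 and MCM7 differed by 0.70 and 0.66, and the mitotic genes INCENP, of the chromosomal passenger complex, PLK1, a kinase, and UBE2C, which feeds the anaphase-promoting complex, by 0.75, 0.67 and 0.72. CCND1, cyclin D1, differed by 0.23 ± 0.049 and lost its call with the GC trend removed, at 0.08. In bulk RNA, fewer cycling cells and less of these messengers per cell cannot be told apart.

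An E2F element, TTTNGCGC, occurred in 10 of 37 promoters of the replication list and in 1.54% of all, and TTTGAA, the cell cycle homology region bound by the DREAM complex, in 16 of 31 promoters of the mitosis list and in 13.6% of all, each searched on both strands. The MCM7 and INCENP promoters, the match-holding list members with the smallest p, are given with these letters in capitals. MCM7 spans chr7:100101398-100101647 on the minus strand, with the match at -9, and INCENP spans chr11:62123761-62124010 on the plus strand, with the match at -10.
MCM7: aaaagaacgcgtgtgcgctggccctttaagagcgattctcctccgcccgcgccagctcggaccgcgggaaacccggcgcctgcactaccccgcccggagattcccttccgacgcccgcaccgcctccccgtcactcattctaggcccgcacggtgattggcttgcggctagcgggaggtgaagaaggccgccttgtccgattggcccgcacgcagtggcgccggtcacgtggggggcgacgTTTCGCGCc
INCENP: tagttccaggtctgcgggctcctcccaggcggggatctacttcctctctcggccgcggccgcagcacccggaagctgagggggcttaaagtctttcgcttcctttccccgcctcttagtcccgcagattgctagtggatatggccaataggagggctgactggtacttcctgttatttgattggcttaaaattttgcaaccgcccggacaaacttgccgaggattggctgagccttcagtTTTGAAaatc

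Ribosomal protein, ribosome biogenesis and cytosolic chaperone genes were also more often higher with chloroquine, by small steps. Of 65 cytosolic ribosomal proteins, 53 were higher with chloroquine and 3 with melatonin, with a median of 0.23; RPL11 and RPS15 differed by 0.49 ± 0.034 and 0.45 ± 0.035. Ribosome biogenesis genes were higher with chloroquine in 29 of 32 cases and none was called toward melatonin (median 0.40). FBL, the methyltransferase fibrillarin, was read at 314 and 319 CPM with chloroquine and 195 and 216 CPM with melatonin (0.63 ± 0.040), and NOLC1, a nucleolar scaffold, differed by 0.56 ± 0.035. All 8 subunits of the CCT chaperonin, which folds tubulin and actin, were higher with chloroquine, by 0.15 (CCT4) to 0.37 (CCT5). HSPB1, the small heat shock protein HSP27, lay at 194 and 198 CPM with chloroquine, 82.5 and 91.3 CPM with melatonin and 249 and 241 CPM untreated. Its melatonin libraries were the low ones (1.18 ± 0.044), as were those of the constitutive chaperone HSPA8 (0.72 ± 0.035). Heat shock and cytosolic chaperones counted 15 of 23 higher with chloroquine and 3 with melatonin (78.3% called), and proteasome subunits 19 of 38 and 7 (68.4%). These shares stand beside 47.0% of all tested genes. Within the proteasome list the core subunit PSMB7 (0.40) and the activator PSME4 (-0.39) lay on opposite sides.

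Alpha and beta tubulins were higher with chloroquine in 7 of 11 cases, with TUBB3 (-0.69) higher with melatonin. TUBA1B was read at 633 and 669.7 CPM with chloroquine, 355 and 361 CPM with melatonin and 832 and 802 CPM untreated. TUBB was read at 1293 and 1301 CPM with chloroquine, 753 and 802 CPM with melatonin and 1498 and 1500.2 CPM untreated. The order untreated, chloroquine, melatonin held for both without overlap, with direct differences of 0.86 ± 0.036 and 0.74 ± 0.035. Tubulin messengers are similar in sequence and reads may be split among them.

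**Figure D5:**
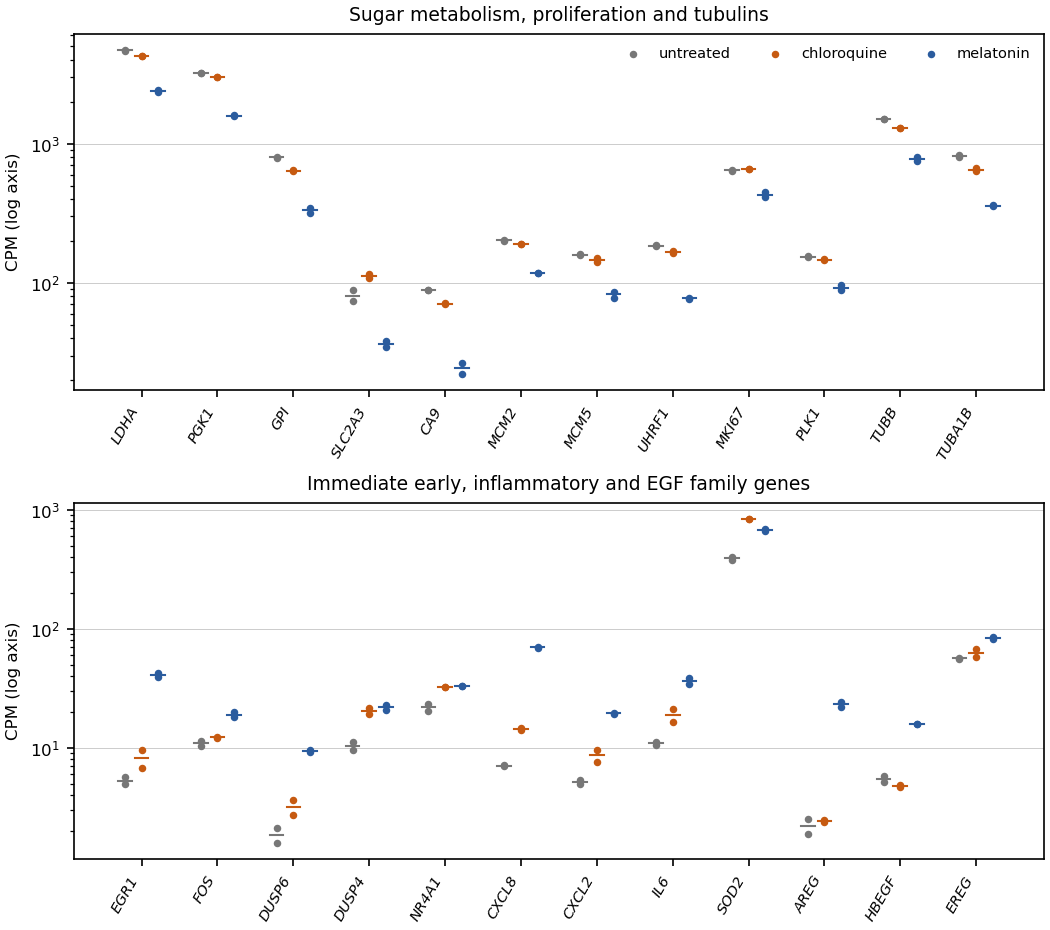
CPM on a log axis in each library for genes of sugar metabolism, proliferation and tubulins (upper panel) and for immediate early, inflammatory and EGF family genes (lower panel); points are libraries and short lines group means. In the upper panel melatonin is the lowest group for every gene shown; in the lower panel melatonin is highest for EGR1, CXCL8, AREG and HBEGF, chloroquine is highest for SOD2, and DUSP4 and NR4A1 are close with both agents.

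Immediate early genes, which growth factor and stress signals switch on within minutes, and the feedback inhibitors of ERK were higher with melatonin in 22 of 39 cases and with chloroquine in 6, with a median of -0.45. EGR1, a zinc finger factor, was read at 6.80 and 9.52 CPM with chloroquine, 39.1 and 42.5 CPM with melatonin and 5.70 and 4.93 CPM untreated. Melatonin was far above the others, and the direct difference was -2.32 ± 0.11 (4.99-fold; edgeR adjusted p = 7.83e-16), with 0.62 for chloroquine and 2.94 for melatonin against untreated cells. FOS, a subunit of AP-1, lay at 12.1 and 12.4 CPM with chloroquine, 17.99 and 20.1 CPM with melatonin and 11.3 and 10.4 CPM untreated (-0.63 ± 0.10). PHLDA1, a feedback gene of growth signals, and JUNB, another AP-1 subunit, differed by -1.26 and -0.75, and the ERK phosphatase DUSP6 by -1.56. The genes called toward chloroquine included MYC (0.54) and KLF6 (0.83). The phosphatase DUSP4 and the orphan receptor NR4A1 did not pass the test: their differences were -0.10 and -0.017, with intervals of -0.29 to 0.092 and -0.17 to 0.14, while DUSP4 lay 0.99 and 1.09 above untreated cells with chloroquine and melatonin. The number called toward chloroquine was 2 with DESeq2 or library totals alone, and 3 without any 1 of the 4 treated libraries.

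Ligands of the EGF receptor lay on the melatonin side as well. Of 10 tested genes of the receptor family and its ligands, 8 were higher with melatonin and 1, the feedback inhibitor ERRFI1 (0.24), with chloroquine, with a median of -0.71. AREG (chr4:74445134-74455009), amphiregulin, was read at 2.48 and 2.38 CPM with chloroquine, 24.4 and 21.8 CPM with melatonin and 1.90 and 2.55 CPM untreated. HBEGF, the heparin-binding ligand, lay at 4.67 and 4.92 CPM with chloroquine, 15.7 and 15.8 CPM with melatonin and 5.21 and 5.76 CPM untreated. For both ligands chloroquine and untreated libraries lay together and apart from melatonin, and the direct differences were -3.25 ± 0.14 and -1.72 ± 0.13 (edgeR adjusted p = 1.85e-16 and 1.2e-11). TGFA (-1.11), BTC (-1.11), NRG1 (-0.96) and EREG (-0.41) were higher with melatonin, as was the receptor EGFR by a smaller step (-0.16).

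Among NF-kB targets, chemokines and cytokines, 13 of 25 were higher with melatonin and 5 with chloroquine, with a median of -0.27. CXCL8 (interleukin 8, chr4:73740506-73743716) was read at 14.2 and 14.7 CPM with chloroquine, 69.5 and 70.2 CPM with melatonin and 7.11 and 7.08 CPM untreated. The 3 groups were separate, both agents being above untreated cells and melatonin 4.84-fold above chloroquine (-2.27 ± 0.075; edgeR adjusted p = 3.07e-19). IL11, a cytokine of the interleukin 6 family, lay at 5.86 and 7.09 CPM with chloroquine, 25.1 and 25.4 CPM with melatonin and 6.68 and 7.08 CPM untreated, so that chloroquine overlapped untreated cells. The chemokine CCL20 was read at 1.04 and 0.828 CPM with chloroquine and 7.44 and 7.80 CPM with melatonin (-3.01 ± 0.24), and at 0.184 and 0.166 CPM in untreated cells, a level that 3 counts allow. NFKB2, a subunit of the noncanonical arm, and BIRC3, an inhibitor of apoptosis induced by it, differed by -0.61 and -0.75. SOD2 (0.32), the mitochondrial superoxide dismutase, ICAM1 (0.36), an adhesion molecule, CSF1 (0.74), CCL2 (0.95) and LIF (0.33) were higher with chloroquine, and without chloroquine library 2 or melatonin library 2 the list had 3 such calls.

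The element GGANTTNCC occurred on either strand in 12 of 19 promoters of the NF-kB list and in 3.67% of all promoters; of those 12 genes 7 were higher with melatonin, 1 with chloroquine and 4 did not pass the test. The CXCL8 promoter, whose gene had the smallest p of the list, spans chr4:73740319-73740568 on the plus strand, with the match at -91 in capitals.
CXCL8: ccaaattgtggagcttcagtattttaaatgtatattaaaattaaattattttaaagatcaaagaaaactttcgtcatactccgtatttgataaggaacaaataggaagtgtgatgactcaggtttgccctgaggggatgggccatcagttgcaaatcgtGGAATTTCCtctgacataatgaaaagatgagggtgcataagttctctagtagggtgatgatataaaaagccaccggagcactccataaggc

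Targets of p53, in arrest, repair and death, lay mostly on the melatonin side where they were called. Of 26, 13 were higher with melatonin and 3 with chloroquine, with a median of -0.24 (61.5% called, beside 47.0% of all tested genes). CDKN1A, the cell cycle inhibitor p21, was read at 76.5 and 74.4 CPM with chloroquine, 122 and 109 CPM with melatonin and 125 and 121 CPM untreated. Chloroquine was the low group here and melatonin lay with untreated cells (-0.62 ± 0.048; edgeR adjusted p = 2.84e-11). GADD45A, a growth arrest gene that ATF4 also drives, lay at 12.7 and 12.6 CPM with chloroquine, 33.6 and 30.5 CPM with melatonin and 12.99 and 11.8 CPM untreated, with melatonin alone high (-1.35 ± 0.090). RRM2B, a ribonucleotide reductase subunit, and PMAIP1, the BH3-only protein NOXA, differed by -0.83 and -0.76. PMAIP1 comes from a separate list of apoptosis regulators, in which 9 of 24 were higher with melatonin and 6 with chloroquine (62.5% called). MDM2 (-0.069) and BAX (0.18) did not pass the test. Of 23 NRF2 targets and glutathione genes, 10 were higher with melatonin and 7 with chloroquine, and the list ran from HMOX1 (1.61) to OSGIN1 (-1.34). FBXO32, the ubiquitin ligase atrogin-1, was high with chloroquine alone, at 20.5 and 18.3 CPM against 6.46 and 5.98 CPM with melatonin and 6.74 and 6.37 CPM untreated (1.63 ± 0.12). SESN3, a sestrin and FOXO target, was highest with melatonin, at 0.546 and 0.776 CPM with chloroquine, 6.75 and 5.74 CPM with melatonin and 0.184 and 0.111 CPM untreated (-3.24 ± 0.28). FBXO32 and SESN3 had the smallest p-values of a list of FOXO and nutrient targets. Of its 13 genes, 2 were higher with chloroquine and 4 with melatonin (46.2% called, below the background of 47.0%).

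The melatonin receptors were barely read and its binding protein NQO2 was higher with melatonin. MTNR1A had 4 counts over the 6 libraries and MTNR1B none, where 3 counts correspond to at most 0.184 CPM in any library. NQO2, which binds melatonin, was read at 32.8 and 33.2 CPM with chloroquine, 45.7 and 51.3 CPM with melatonin and 34.0 and 37.5 CPM untreated (-0.55 ± 0.073; edgeR adjusted p = 4.22e-07). The aryl hydrocarbon receptor AHR, which indoles can bind, was 1.68-fold higher with melatonin (-0.74 ± 0.058), whereas CYP1B1, its target, was 2.02-fold higher with chloroquine, at 79.5 and 80.9 CPM with chloroquine, 39.2 and 40.4 CPM with melatonin and 77.0 and 75.9 CPM untreated. CYP1A1, the target used most often to read that receptor, did not pass the test (0.61, interval -0.12 to 1.35).

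Keratins, the filaments of epithelial cells, were higher with chloroquine where called, and matrix genes were split. Of 10 keratins, 6 were higher with chloroquine and none with melatonin, with a median of 0.56. KRT7 lay at 773 and 777 CPM with chloroquine, 393 and 401 CPM with melatonin and 916 and 973 CPM untreated, the 3 groups being separate (0.96 ± 0.036; edgeR adjusted p = 3.6e-18), and KRT18 differed by 0.72 ± 0.039. KRT7 is also the largest term of the ductal marker sum given above, which was lower with melatonin; whether a change in cell makeup had a part in these differences was not tested. Among 36 matrix and epithelial-mesenchymal genes, 12 were higher with chloroquine and 11 with melatonin (63.9% called, beside 47.0% of all tested genes). COL5A1, a fibrillar collagen, was read at 709 and 722 CPM with chloroquine, 423 and 424 CPM with melatonin and 1006 and 973 CPM untreated (0.76 ± 0.034). THBS1, thrombospondin 1, went the other way, at 18.5 and 19.4 CPM with chloroquine, 56.6 and 59.1 CPM with melatonin and 18.8 and 21.4 CPM untreated (-1.61 ± 0.077). Of 21 YAP targets and SRF contractile genes, 7 were higher with chloroquine and 5 with melatonin (57.1% called, beside 47.0% of all tested genes). Those higher with melatonin included CCN1 (-1.30) and CCN2 (-1.78), targets of YAP. Those higher with chloroquine included AXL (0.17), AMOTL1 (0.19) and the tropomyosin TPM2 (0.57). The integrins ITGA2 (-0.66), ITGB5 (-0.57) and ITGA1 (-0.78) were higher with melatonin and ITGA5 (0.45) and ITGB4 (0.25) with chloroquine.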

How the data were processed

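The deposited table holds raw whole-number counts per gene for 6 libraries, made by the authors before deposit from reads trimmed with fastp and placed on GRCh38, tools and build that the submitters' processing notes name. Which aligner, annotation release and strand setting were used is not given in the sources used here, so overlapping and antisense genes cannot be told apart. Libraries were matched to groups by column names and labels. Counts were filtered with filterByExpr, normalised by TMM and fitted with the edgeR 4.0.16 quasi-likelihood test in R 4.3.3, with 1 term per group over all 6 libraries, 3 residual and 23.6 prior degrees of freedom, and Benjamini-Hochberg adjustment over 16877 genes at 0.05. A log2 fold change is chloroquine minus melatonin, each SE was derived from the F statistic, and intervals are 95%. The biological coefficient of variation was 0.0315. Duplicate libraries differed by more than sampling noise (chi-square per degree of freedom 1.78 to 2.49) and were kept as separate samples. The steps were tested on simulated counts.

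Gene positions came from GENCODE 29 (58274 genes placed), symbols were found for 62639 genes, and promoters are from RefSeq. The genes, gene lists and rules for naming them were chosen with earlier results of these data known. Named were the 12 called genes with the highest and the 12 with the lowest fold change (with non-overlapping groups, a mean level of 2 log2 CPM or more and a symbol other than a clone name), up to 4 members of each main list and 2 of each other list by smallest p, and a set of genes chosen for their role; other genes given with a fold change were picked after their values were seen. Alternatives were RLE size factors, library totals, DESeq2 1.42.0, other count filters, the 4 libraries alone, offsets for GC content and length, a replicate block, each library left out and, added after seeing the data, libraries thinned to 15993730 counts.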

Additional observations from a re-analysis of the deposited data

How the results depend on the processing

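Under 16 alternative settings the number of called genes ran from 5823 (DESeq2) to 8129 (library totals only), and from 6375 to 8076 when 1 library was left out. The numbers at least 2-fold higher with chloroquine and with melatonin were 321 and 305 with DESeq2 and 199 and 197 where genes needed a mean count of 50. Of 145 called genes named by the rule, 141 kept call and direction under every alternative and none turned sign. Many of them were picked by fold change or smallest p in these same data, so their stability does not stand for all calls. Over all called genes, 73.4% were also called with DESeq2. The labels number the replicates 1 and 2 in each group, but deviations of same-numbered libraries did not go together (correlations -0.0405 to -0.00876), and they were not treated as pairing the libraries; with the replicate block 7878 genes were called, 7832 of them shared, and 7705 with the block and GC offsets.

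Small list counts moved most. With library totals only, genes called toward melatonin were 6 V-ATPase subunits, 2 glycolysis and hypoxia genes, 3 replication genes, 1 mitosis gene and 7 oxidative phosphorylation genes, and genes called toward chloroquine were 0 LXR targets, 1 autophagy gene, 6 ATF6 and XBP1 targets and 2 immediate early genes. With DESeq2 the counts were 1 SREBP2 target and 0 glycolysis genes toward melatonin, and 0 LXR targets and 2 immediate early genes toward chloroquine. Without a count filter 1 SREBP2 target was called toward melatonin. With GC offsets, also with the replicate block, they were 1 fatty acid gene and 2 glycolysis genes toward melatonin and 0 LXR targets toward chloroquine, and the last was also 0 where genes needed a mean count of 50 and after thinning. Leaving out 1 library gave ranges toward melatonin of 1 to 2 for SREBP2 targets, 1 to 2 for fatty acid genes, 3 to 5 for LXR targets, 8 to 14 for autophagy genes, 0 to 2 for glycolysis genes, 0 to 1 for replication genes and 1 to 2 for oxidative phosphorylation genes, and toward chloroquine of 0 to 2 for LXR targets, 3 to 7 for immediate early genes and 3 to 5 for NF-kB genes; where 1 library of an agent was left, it was assumed to vary like the other groups. The causes were not tested.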

Other observations

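Genes of daily rhythm, interferon response, chromatin and nuclear RNA were also read, and several differed between the agents. Of 18 core clock genes, 8 were higher with chloroquine and 5 with melatonin (72.2% called, beside 47.0% of all tested genes). BHLHE40, a repressor of the clock, was read at 522 and 537 CPM with chloroquine, 309 and 325 CPM with melatonin and 439.7 and 387 CPM untreated (0.74 ± 0.043). NR1D2, the heme receptor REV-ERBbeta, differed by -0.82 ± 0.048. Of 24 interferon-stimulated genes 10 were higher with chloroquine and 6 with melatonin (66.7% called). The membrane proteins IFITM2 and IFITM3, near-identical copies between which reads may be split, differed by 0.90 and 0.72. Histone messengers, most of which carry no poly(A) tail, were called toward melatonin in 6 of 14 cases and toward chloroquine in none, with a median of -0.53. The share called, 42.9%, was below the background of 47.0%. H2BC21 and H2AC6 differed by -1.49 ± 0.18 and -0.78 ± 0.10.

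The nuclear RNA NEAT1, the scaffold of paraspeckles, was read at 1447 and 1521 CPM with chloroquine, 2619 and 2399.7 CPM with melatonin and 1134 and 1049 CPM untreated (-0.76 ± 0.041). The long RNA PVT1 differed by 0.55 ± 0.071. Of 16 snoRNA host genes, 5 were higher with chloroquine and 1 with melatonin (37.5% called, below the background of 47.0%). SNHG3 (0.49) and SNHG6 (0.36) had the smallest p-values of that list. Aminoacyl-tRNA synthetases were split, 7 of 20 each way, with FARSA (0.53) and VARS1 (0.83) the smallest p-values. Among metal genes, the metallothionein MT2A lay at 92.0 and 98.4 CPM with chloroquine and 145 and 143 CPM with melatonin (-0.60 ± 0.069), and the zinc importer SLC39A10 differed by 1.03 ± 0.045. Of lipid genes outside the sterol pathway, ANGPTL4, an inhibitor of lipoprotein lipase, differed by -1.01 ± 0.13, the ceramide synthase CERS6 by -0.64 and the sphingosine phosphate lyase SGPL1 by -0.48. Of 482 tested processed pseudogenes, 81 were called higher with chloroquine and 14 with melatonin, with a median of 0.18. Both counts are smaller shares than the 23.9% and 23.1% over all tested genes. Reads of their parent genes may reach these pseudogenes.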
